A study of Rattus norvegicus with 10 samples.

Results

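The genes described here are 10 that code for channels, pumps and sensors of the calcium store, measured in rat cerebral cortex. They are the IP3 receptors Itpr1, Itpr2 and Itpr3, the ryanodine receptors Ryr1, Ryr2 and Ryr3, the calcium pumps Atp2a2 and Atp2a3, and the store sensors Stim1 and Stim2. They were taken by symbol from a table of 32623 gene rows, each symbol has 1 row there, and all 10 were among the 15169 genes that passed the expression filter. That filter asked 5 or more libraries of the 10 to reach 0.5 FPKM (fragments per kilobase of transcript, scaled to library size). The genes were chosen by name, and the list was selected on earlier EA against control values of these libraries, those of Itpr3 among them. The folds and p-values below therefore describe the genes and are no independent evidence for them.

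Poly(A) RNA was sequenced from cerebral cortex, with 5 libraries from rats after electroacupuncture (EA) and 5 from control rats. All were adult male Sprague-Dawley rats with no genetic change or other treatment named. EA rats received needles at the points Baihui, on the crown of the head, and Shuigou, below the nose, with an electric current through the needles. Control rats were bound in the same way for the same time, and both groups were then anesthetized with pentobarbital and perfused with saline before the cortex was taken. The study addressed how EA changes gene expression in the cortex. Labels number the libraries within each group but do not state that each came from a different rat, so the p-values measure the spread between these libraries.

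Calcium is held in the endoplasmic reticulum at a far higher concentration than in the cytosol, and cells release it in bursts. IP3 receptors open when phospholipase C at the plasma membrane makes inositol trisphosphate, while ryanodine receptors open when calcium itself rises near them. SERCA pumps, the products of Atp2a genes, return calcium to the store with energy from ATP. When the store empties, STIM proteins in its membrane sense the loss and open Orai channels at the cell surface, through which the store is refilled. In neurons these parts shape dendritic calcium signals, and in astrocytes they carry calcium waves.

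Total counts were 47843590 to 60941939 in EA libraries and 55223193 to 61707722 in control libraries. Genes of the mitochondrial genome held 41.7 to 46.7% of FPKM in EA and 38.2 to 45.1% in control libraries. EA 2 and EA 5 stand apart by their small structural RNAs (4049 rows), which summed to 1986 FPKM in EA 2, 2440 FPKM in EA 5, 1217 to 1341 FPKM across EA 1, EA 3 and EA 4, and 1074 to 1171 FPKM across the control libraries. Markers of excitatory neurons summed to 1343 to 1532 FPKM in EA and 1379 to 1571 FPKM in control libraries. Markers of choroid plexus and ependyma summed to 0.868 to 3.23 FPKM in EA and 1.14 to 4.57 FPKM in control libraries, with Otx2 at 0. The summed levels of all 12 marker lists overlapped between the groups.

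Itpr3 lay lower in every EA library than in every control library, and Ryr2 lay higher in every EA library. Ryr3 was higher in 4 of the 5 EA libraries than in any control library. For Itpr1, Itpr2, Ryr1, Atp2a2, Stim1 and Stim2 the groups overlapped and the estimated change was close to 0, and Atp2a3 was lower on average with overlap. A call needed a fold change above 1.2 and a Benjamini-Hochberg adjusted p under 0.05. With edgeR's quasi-likelihood test 0 of the 10 genes were called, against 3 of 15169 genes (0.0198%). At an unadjusted p under 0.05 lay 3 of the 10, where 13.7% of all genes did. DESeq2, at the same thresholds, called 2 of the 10, Itpr3 lower and Ryr2 higher, where it called 1.18% of the 14278 genes to which it gave an adjusted p. The median log2 fold change was 0.02 over the 10 genes and -0.0018 over all genes tested.

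**Figure D1:**
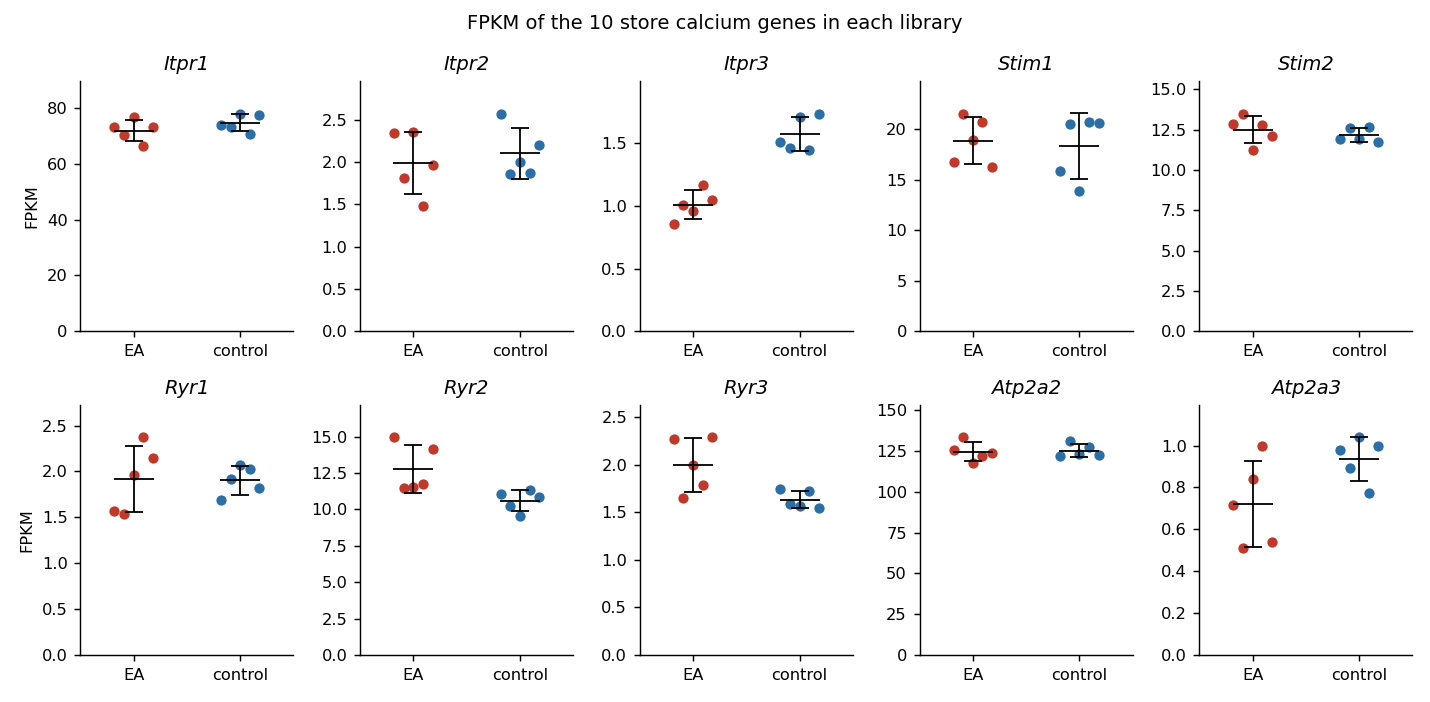
FPKM of the 10 genes in each library, 1 panel a gene with its own axis that starts at 0, EA on the left (red) and control on the right (blue). Points are libraries and bars are the mean ± SD of 5. Itpr3 is at 0.859 to 1.17 in EA and 1.45 to 1.74 in control libraries, with no overlap, and Ryr2 at 11.5 to 14.9 in EA and 9.57 to 11.3 in control libraries.

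By level, Atp2a2 led the set with 124.5 ± 5.80 FPKM in EA and 125.2 ± 3.94 FPKM in control (SD, n = 5 each, as throughout). Itpr1 followed at 72.0 ± 3.82 FPKM in EA and 74.7 ± 3.06 FPKM in control, then Stim1, Stim2 and Ryr2 at 10.6 to 18.8 FPKM on average. Itpr2, Ryr1 and Ryr3 averaged 1.63 to 2.10 FPKM, and Itpr3 and Atp2a3 were the lowest. Among the 15169 genes tested, mean FPKM placed Atp2a2 at rank 439, Itpr1 at 882, Itpr3 at 13236 and Atp2a3 at 14222. Stim2 and Ryr2 are neighbours in this order and overlapped in EA libraries (11.2 to 13.5 FPKM for Stim2, 11.5 to 14.9 FPKM for Ryr2), but not in control libraries (11.7 to 12.7 FPKM for Stim2, 9.57 to 11.3 FPKM for Ryr2). Itpr2, Ryr1 and Ryr3 could not be ordered beyond their spread in EA libraries.

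Itpr3 codes for the IP3 receptor that is best known from epithelial and secretory cells, and it was the gene of the set with the lowest p. It lies at chr20:5646097-5711702 on the plus strand (Rnor_6.0). Its FPKM was 0.859, 1.01, 0.957, 1.17 and 1.05 in EA 1 to EA 5, against 1.51, 1.46, 1.71, 1.45 and 1.74 in control 1 to control 5. The groups did not overlap, and the highest EA library, EA 4, stayed below the lowest control library, control 4. Of all genes tested, 2.25% had all EA libraries below all control libraries. The deposited counts behind these values were 435, 562, 419, 590 and 548 in EA, against 817, 813, 872, 730 and 979 in control, so no library gave fewer than 419. Mean FPKM was 1.01 ± 0.114 in EA and 1.57 ± 0.138 in control. The fitted log2 fold change, EA over control, was -0.62 (standard error 0.10, 95% interval -0.83 to -0.40), a fold of 0.651. Adjusted p was 0.0897 with edgeR and 3.67e-05 with DESeq2, so the call depends on the tool. Over 18 edgeR settings the log2 fold change stayed between -0.67 and -0.56, with adjusted p of 0.0505 to 0.315, and none of them called the gene. A row on the opposite strand within Itpr3 is listed at 0 in the libraries.

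Itpr1, the main IP3 receptor of brain neurons, lies at chr4:140247313-140580748 on the plus strand. It had 73.3, 70.3, 76.8, 66.5 and 73.1 FPKM in EA 1 to EA 5, against 74.0, 73.1, 78.1, 70.9 and 77.6 FPKM in control 1 to control 5. The ranges overlapped over most of their length, with EA 4 lowest and control 3 highest. Its log2 fold change was -0.03 (standard error 0.06, 95% interval -0.15 to 0.09, edgeR adjusted p = 0.856). Itpr2, the IP3 receptor through which astrocytes release calcium, lies at chr4:180538389-180722358 on the minus strand and had 1.99 ± 0.369 FPKM in EA and 2.10 ± 0.297 FPKM in control. Its libraries ran from 1.48 to 2.36 FPKM in EA and 1.86 to 2.57 FPKM in control, with a log2 fold change of -0.05 (95% interval -0.38 to 0.27, edgeR adjusted p = 0.909).

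Itpr1 held most of the family, and the summed IP3 receptor FPKM overlapped, at 69.2 to 80.1 in EA and 74.2 to 81.8 in control libraries. Itpr3 made up 1.12, 1.38, 1.196, 1.69 and 1.38% of this sum in EA 1 to EA 5, against 1.93, 1.91, 2.09, 1.95 and 2.13% in control 1 to control 5. These shares did not overlap, which largely repeats the Itpr3 values, since Itpr1 holds most of the sum. The Itpr1 share was in turn higher in every EA library than in every control library. Itpr1 made up 96.0 ± 0.159% in EA and 95.3 ± 0.354% in control, and Itpr2 made up 2.64 ± 0.367% in EA and 2.68 ± 0.360% in control. FPKM divides by transcript length, so the shares compare levels per length. Shares were described and not tested.

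**Figure D2:**
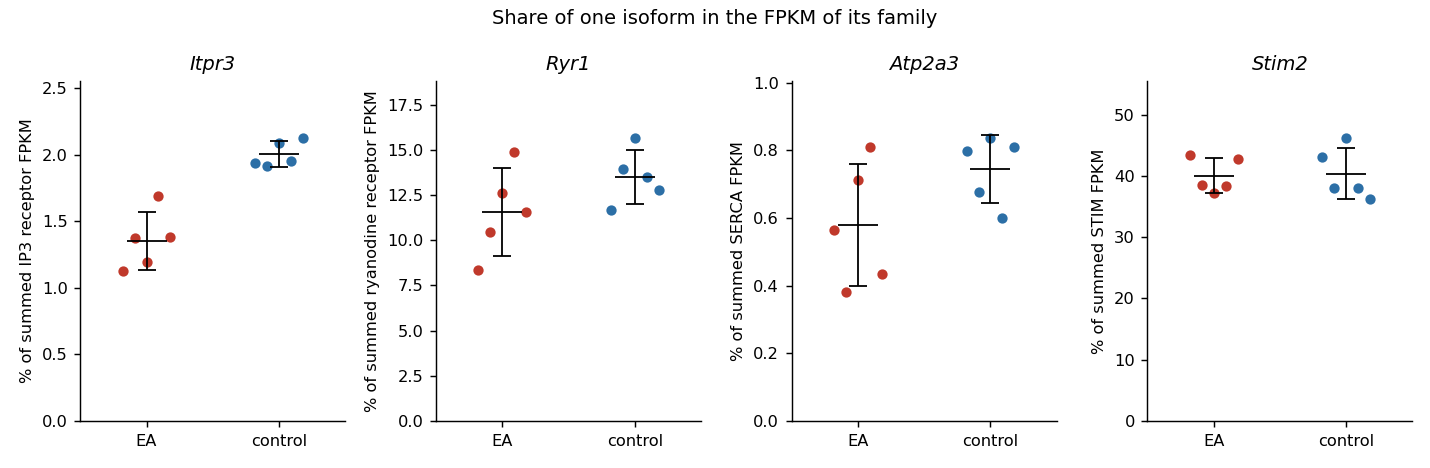
Share of each family's summed FPKM held by Itpr3, Ryr1, Atp2a3 and Stim2 in each library, in percent on axes that start at 0, EA left (red) and control right (blue). Points are libraries and bars are the mean ± SD of 5. Itpr3 holds 1.12 to 1.69% of IP3 receptor FPKM in EA and 1.91 to 2.13% in control libraries, while the shares of Ryr1, Atp2a3 and Stim2 overlap.

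Ryr2 codes for the ryanodine receptor of heart muscle, which is also the most abundant ryanodine receptor of the brain, and lies at chr17:65535403-65955606 on the minus strand. Its FPKM was 14.9, 11.5, 11.6, 11.8 and 14.1 in EA 1 to EA 5, against 11.1, 10.2, 9.57, 11.3 and 10.9 in control 1 to control 5. EA 1 and EA 5 were well above the rest, while the other 3 EA libraries lay just above control 4, the highest control library. Of all genes tested, 0.850% had all EA libraries above all control libraries. Mean FPKM was 12.8 ± 1.64 in EA and 10.6 ± 0.702 in control. The log2 fold change was 0.29 (standard error 0.08, 95% interval 0.12 to 0.46), a fold of 1.22, with an adjusted p of 0.190 with edgeR and 0.0257 with DESeq2. Over 19 edgeR settings it stayed between 0.23 and 0.33, with adjusted p of 0.121 to 0.467. In whole cortex a different number of cells of a type and a different amount of RNA per cell cannot be told apart, for this gene or any other here.

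Ryr3, a ryanodine receptor found in brain and several other tissues, lies at chr3:104118063-104504204 on the minus strand. It had 2.27, 1.65, 2.00, 1.79 and 2.29 FPKM in EA 1 to EA 5, against 1.74, 1.59, 1.56, 1.72 and 1.54 FPKM in control 1 to control 5. EA 1 and EA 5 were again the highest, and EA 2 was the one EA library within the control range. Mean FPKM was 2.00 ± 0.283 in EA and 1.63 ± 0.0932 in control. Its log2 fold change was 0.32 (standard error 0.09, 95% interval 0.11 to 0.52), with an adjusted p of 0.213 with edgeR and 0.0593 with DESeq2, so neither tool called it. Ryr1, the ryanodine receptor of skeletal muscle, lies at chr1:87959712-88066101 on the minus strand. Its EA libraries spread from 1.53 to 2.37 FPKM, on both sides of the control range of 1.69 to 2.07 FPKM, and the log2 fold change was 0.03 (95% interval -0.22 to 0.28, edgeR adjusted p = 0.936).

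Summed ryanodine receptor FPKM was 18.8, 14.6, 15.5, 15.9 and 18.6 in EA 1 to EA 5, against 14.5, 13.7, 13.2, 15.1 and 14.2 in control 1 to control 5. EA 2 lay within the control range and the other 4 EA libraries lay above it. The make-up of the family overlapped between groups, with Ryr2 at 76.5 ± 2.41% in EA and 74.9 ± 1.60% in control, Ryr3 at 11.96 ± 0.701% in EA and 11.5 ± 0.452% in control, and Ryr1 at 11.6 ± 2.43% in EA and 13.5 ± 1.49% in control. Set against each other within a library, Ryr2 had 10.1 to 17.4 times the FPKM of Itpr3 in EA and 5.60 to 7.82 times in control libraries. That ratio combines the 2 genes with the lowest p, so it shows their sizes side by side and nothing further.

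**Figure D3:**
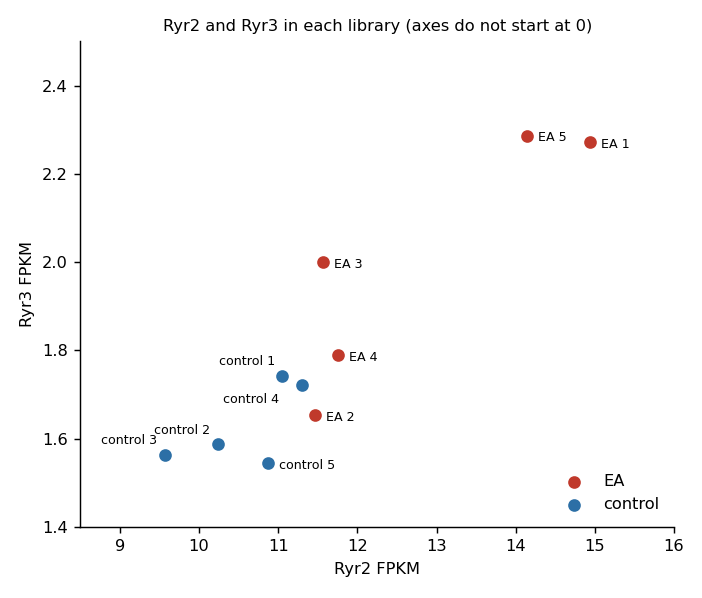
FPKM of Ryr2 (x axis) and of Ryr3 (y axis) in each library, EA in red and control in blue, on axes that do not start at 0. EA 1 and EA 5 lie at the upper right with 14.9 and 14.1 FPKM of Ryr2, and EA 2 lies beside the control libraries.

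Promoters are shown for Itpr3, Ryr2 and Ryr3, the 3 of the 10 genes with an edgeR unadjusted p under 0.05. Each is the 250 bases before the transcript start in RefSeq (build GRCr8), printed 5′ to 3′ in the direction of the gene. Capitals mark matches to GGGCGG, the core of the GC box bound by Sp1 and related factors, or to CACGTG, the E-box of bHLH factors, on either strand.
Itpr3: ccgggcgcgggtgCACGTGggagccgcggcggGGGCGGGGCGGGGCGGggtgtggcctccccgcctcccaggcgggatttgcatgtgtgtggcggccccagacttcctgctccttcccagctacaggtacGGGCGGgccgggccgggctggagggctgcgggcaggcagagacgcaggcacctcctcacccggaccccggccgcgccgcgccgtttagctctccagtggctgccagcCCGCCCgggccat
Ryr2: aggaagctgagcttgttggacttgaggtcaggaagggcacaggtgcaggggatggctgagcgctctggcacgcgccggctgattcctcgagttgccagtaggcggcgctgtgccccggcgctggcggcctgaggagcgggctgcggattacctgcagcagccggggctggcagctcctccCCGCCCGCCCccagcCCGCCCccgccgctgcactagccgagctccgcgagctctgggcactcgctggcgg
Ryr3: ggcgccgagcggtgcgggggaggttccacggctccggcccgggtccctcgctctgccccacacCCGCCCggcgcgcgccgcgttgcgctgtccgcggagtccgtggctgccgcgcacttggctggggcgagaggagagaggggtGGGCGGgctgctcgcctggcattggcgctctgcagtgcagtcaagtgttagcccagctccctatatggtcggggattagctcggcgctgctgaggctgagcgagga
Their places in GRCr8 are chr20:5138562-5138811 on the plus strand for Itpr3, chr17:63081277-63081526 on the plus strand for Ryr2 and chr3:120433466-120433715 on the minus strand for Ryr3, which has a further annotated start that is not shown. The strand of Ryr2 is given differently in the builds. Overlapping matches run together in the capitals. Itpr3 held 5 matches to GGGCGG, Ryr2 held 3 and Ryr3 held 2. Such a match was present in 9 of the 10 genes, the exception being Itpr1, and in 30.5% of 33469 rat promoters of the same length. The match to CACGTG was found in Itpr3 alone among the 10 and in 5.59% of all promoters. GC content was 77.2% for Itpr3, 72.0% for Ryr2 and 72.4% for Ryr3, against a median of 51.2% over all promoters. It was 72 to 80% for Itpr2, Atp2a2, Atp2a3, Stim1 and Stim2, 62% for Itpr1 and 55.6% for Ryr1. The share with GGGCGG was not compared with promoters of like GC content. The letters TATAAA, one form of the TATA box and present in 12.9% of promoters, had no match in any of the 10. Other forms of the TATA box were not searched. The cAMP response element TGACGTCA (1.59% of promoters), the AP-1 site TGACTCA (4.05%) and the heat shock element core GAANNTTC (7.23%) had none either. A match of letters says nothing of binding in these rats, and the part of promoter sequence in the folds was not tested.

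Atp2a2 codes for the SERCA pump that neurons, glia and heart muscle use, and lies at chr12:39553903-39603326 on the plus strand. It had 117 to 133 FPKM in EA and 122 to 131 FPKM in control libraries. Its log2 fold change of 0.02 (standard error 0.04, 95% interval -0.07 to 0.10, edgeR adjusted p = 0.897) has the narrowest interval of the set. Atp2a3, the SERCA pump of blood platelets, lymphoid cells, endothelium and some epithelia, lies at chr10:59529785-59560430 on the plus strand. It had 0.716, 0.510, 0.841, 0.997 and 0.541 FPKM in EA 1 to EA 5, against 0.980, 0.892, 1.04, 0.771 and 0.998 FPKM in control 1 to control 5. EA 1, EA 2 and EA 5 lay below every control library, and EA 4 lay near the top of the control range. The counts were 155 to 276 in EA and 214 to 309 in control libraries, and the log2 fold change was -0.36 (standard error 0.19, 95% interval -0.78 to 0.07, edgeR adjusted p = 0.444). Atp2a3 overlaps Itgae, an integrin subunit gene on the same strand with a mean of 0.814 FPKM, so reads in the shared stretch cannot be placed with certainty. Atp2a3 held 0.580 ± 0.181% of SERCA FPKM in EA and 0.744 ± 0.101% in control.

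Stim1, the sensor that drives store-operated entry after strong depletion, lies at chr1:167373678-167533420 on the plus strand. It had 16.7, 21.5, 18.9, 20.6 and 16.2 FPKM in EA 1 to EA 5, against 15.8, 20.5, 13.8, 20.7 and 20.6 FPKM in control 1 to control 5. EA 1, EA 5, control 1 and control 3 were the lowest, and the groups overlapped. The log2 fold change was 0.07 (standard error 0.12, 95% interval -0.19 to 0.33, edgeR adjusted p = 0.855). Stim2, which responds to small losses of store calcium, lies at chr14:59198401-59323947 on the minus strand and had 12.5 ± 0.855 FPKM in EA and 12.2 ± 0.435 FPKM in control. Its log2 fold change was 0.06 (95% interval -0.04 to 0.17, edgeR adjusted p = 0.620). Stim1 exceeded Stim2 in every library, by a ratio of 1.507 ± 0.173 in EA and 1.501 ± 0.247 in control.

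**Figure D4:**
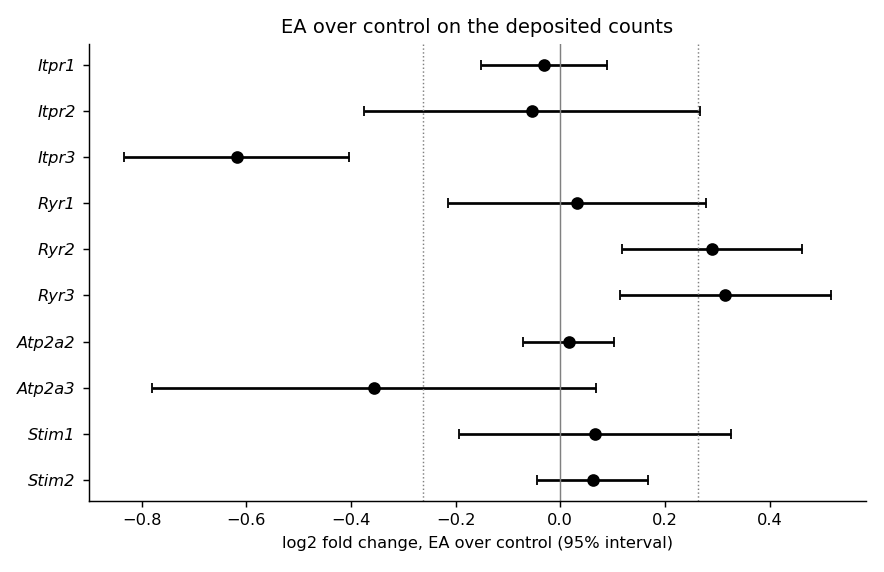
Fitted log2 fold change, EA over control, of the 10 genes with its 95% interval from edgeR's quasi-likelihood fit. The solid line is at 0 and the dotted lines mark a fold of 1.2 in either direction. The intervals of Itpr3 (-0.83 to -0.40), Ryr2 (0.12 to 0.46) and Ryr3 (0.11 to 0.52) leave out 0.

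Genes that work beside these channels were counted in lists by role, against 1000 higher and 1085 lower of the 15169 genes tested (13.7% together) at an unadjusted p under 0.05. In none of them did edgeR call a gene, and DESeq2 called 1, Plcd3. Of the partners of store-operated entry 9 were tested, and 0 lay at an unadjusted p under 0.05 (median log2 fold change -0.04). The pore subunit Orai1 had 4.31 ± 1.02 FPKM in EA and 5.61 ± 1.10 FPKM in control (log2 fold change -0.35, standard error 0.19, edgeR adjusted p = 0.445), while Orai2 and Orai3 had log2 fold changes of 0.08 and 0.05. Of the SERCA regulators 3 were tested. Among them the inhibitor Pln had 0.767 ± 0.510 FPKM in EA and 0.806 ± 0.204 FPKM in control, and Tmx1, a membrane-bound oxidoreductase of the store, had an unadjusted p under 0.05 at a log2 fold change of 0.15. The fast muscle pump Atp2a1 had no row under that symbol, so it was not tested and the SERCA shares leave it out.

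Phospholipase C isoforms make the IP3 that opens the IP3 receptors. Of the 12 tested, 3 were lower and 0 higher in EA at an unadjusted p under 0.05, with a median log2 fold change of -0.09, where 13.7% of all genes lay under that p in either direction. Plcd3 had 5.56 ± 0.506 FPKM in EA and 7.07 ± 0.673 FPKM in control (log2 fold change -0.32, standard error 0.08, adjusted p of 0.183 with edgeR and 0.0343 with DESeq2). The others were Plcg2, the isoform of microglia and blood cells, at -0.34 and the neuronal Plch2 at -0.25 on the log2 scale. Of the 10 enzymes that break down or convert IP3 and its products, 0 lay under an unadjusted p of 0.05.

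Among proteins that bind or anchor the release channels 26 were tested, with 3 higher and 3 lower at an unadjusted p under 0.05 and a median of -0.03. Over all genes tested 13.7% lay under that p in either direction. Asph, whose short products junctin and junctate sit beside the release channels, had 4.88 ± 0.389 FPKM in EA and 4.15 ± 0.338 FPKM in control (log2 fold change 0.26, standard error 0.06). Its adjusted p was 0.176 with edgeR and 0.0265 with DESeq2, but its DESeq2 fold did not pass 1.2. Jph3, a junctophilin that ties the store to the plasma membrane in neurons, had a log2 fold change of -0.19 (edgeR adjusted p = 0.203), and Itprid2 one of -0.20 (edgeR adjusted p = 0.257). The ryanodine receptor binding protein Fkbp1a had one of 0.11 (edgeR adjusted p = 0.290).

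For leak channels and lumenal calcium binders of the store, all 14 were tested, and 6 were higher and 0 lower at an unadjusted p under 0.05, with a median of 0.07, where 13.7% of all genes lay under that p in either direction. At any p, 9 of the 14 were above 0 and 5 below. None of the leak channels, Tmco1, Tmbim6, Grina and Tmbim1, was among the 6, and 3 of these 4 were below 0 (they are named after their values were seen). The chaperone Hspa5 had 129 ± 5.80 FPKM in EA and 113 ± 5.74 FPKM in control, and Hsp90b1 had 109 ± 7.66 FPKM in EA and 95.6 ± 5.96 FPKM in control. Their log2 fold changes were 0.21 each, with adjusted p of 0.119 with edgeR and 6.17e-04 with DESeq2 for Hspa5, and of 0.178 with edgeR and 0.0241 with DESeq2 for Hsp90b1. Neither fold passed 1.2 with DESeq2. The calcium buffer calreticulin, Calr, had a log2 fold change of 0.11 (edgeR adjusted p = 0.314) and the disulfide isomerase Pdia3 one of 0.10 (edgeR adjusted p = 0.286). Hspa5, Hsp90b1, Calr and Pdia3 also fold proteins, so the count of 6 is not one of calcium binding alone.

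The 10 genes differ in the stretch of genome they span, and so did the folds of all genes. Median log2 fold change was -0.02 over 8073 genes that span under 20 kb and 0.05 over 163 genes that span over 400 kb, of which 64.4% were above 0. Ryr2 spans 420204 bases and Ryr3 386142 bases, and their log2 fold changes exceeded those of 93.3% and 97.2% of the genes in their own span class. Itpr3 spans 65606 bases and exceeded 0.543% of its class of 20 to 100 kb, and Atp2a3 exceeded 2.40% of that class. The median centred log2 level of genes over 400 kb was 0.10 in EA 1 and 0.08 in EA 5, the highest of the 10 libraries, and -0.10 in EA 4, the lowest. EA 1 and EA 5 are also the libraries in which Ryr2 and Ryr3 were highest. In EA 4 both genes still lay above every control library. For the class of 100 to 400 kb, which holds Ryr3, the median was 0.04 in EA 1, 0.05 in EA 5 and -0.03 in EA 4. The part of gene span in the values of Ryr2 and Ryr3 was not tested.

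**Figure D5:**
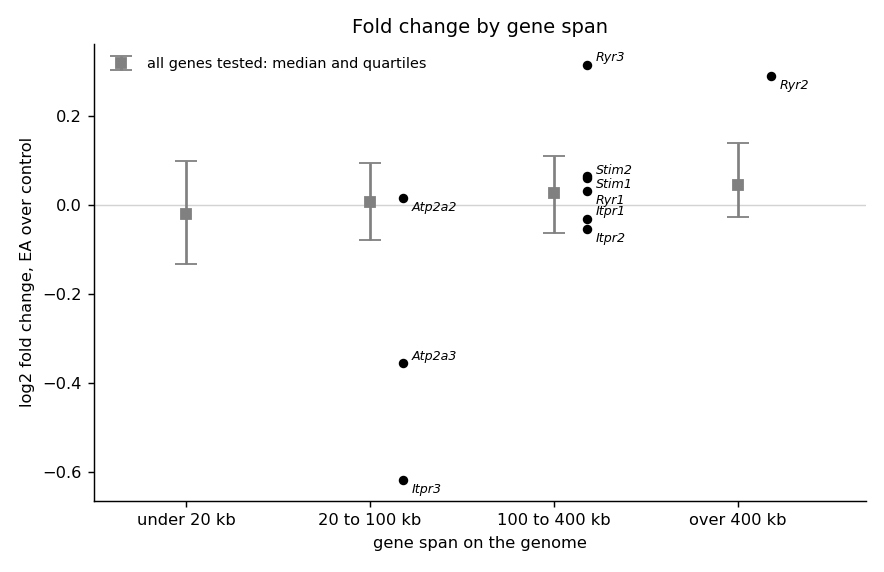
Log2 fold change, EA over control, by genomic span of the gene in 4 classes. Grey squares with bars are the median and quartiles of all genes tested in a class, and black points are the 10 genes. Ryr2 and Ryr3 lie above the upper quartile of their classes, and Itpr3 and Atp2a3 lie below the lower quartile of theirs.

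Markers of endothelial cells summed to 40.8 to 48.9 FPKM in EA and 47.2 to 56.7 FPKM in control libraries, and 4 of 4 tested were below 0 on the log2 scale (median -0.14). These ran from -0.03 for Cdh5 and -0.07 for Tek to -0.22 for Flt1 and -0.50 for Vwf. Of the 6 listed, Pecam1 had no row under that symbol and Cldn5 lay below the expression filter. Markers of oligodendrocytes summed to 856 to 1112 FPKM in EA and 972 to 1414 FPKM in control libraries, and 6 of 6 were below 0 (median -0.18). Blood cell markers summed to 5.28 to 9.26 FPKM in EA and 5.75 to 26.0 FPKM in control libraries, most of it hemoglobin, with 2 of 3 tested below 0 and the leukocyte marker Ptprc above it at 0.11. Below 0 were also 5 of 6 markers of microglia (median -0.05), 4 of 5 of pericytes and smooth muscle (median -0.08) and 3 of 5 of meninges (median -0.27). Above 0 were 4 of 6 markers of excitatory neurons (median 0.08) and 4 of 6 of astrocytes (median 0.03). Inhibitory neurons and striatal projection neurons each had 3 of 6 markers above 0 (medians 0.06 and 0.04). The part of these cell types in the values of Itpr3, Atp2a3, Ryr2 and Ryr3 was not tested. Without EA 2 and EA 5, the libraries that stand apart, the log2 fold change was -0.63 for Itpr3 (edgeR adjusted p = 0.305) and 0.30 for Ryr2 (edgeR adjusted p = 0.467), while that of Atp2a3 was -0.11 (edgeR adjusted p = 0.886), against -0.36 with all libraries. Skeletal muscle markers summed to 10.4 to 14.6 FPKM in EA and 10.5 to 12.9 FPKM in control libraries, nearly all of it Acta1. Ckm, Myh4, Tnnt3 and Myl1 each averaged 0.05 to 0.15 FPKM in both groups. The part of muscle in the values of Ryr1 was not tested.

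Over the 10 libraries the genes most like Itpr3, by the root mean square difference between standardized log2 CPM profiles, were Npepl1 (0.289), Haghl (0.335), Efna1 (0.354), Slc38a3 (0.379) and Paqr6 (0.400). Efna1 codes for an ephrin ligand and Slc38a3 for a glutamine transporter of astrocytes. Those most like Ryr2 were Pbdc1 (0.280), Ankrd34b (0.316), Ralgapa1 (0.345), RGD1307100 (0.359) and Mycbp2 (0.361). Ryr3 was the closest of the other 9 channel and pump genes to Ryr2, at place 8 of 15168 genes (0.389), while Itpr3 stood at place 15030. These likenesses describe 10 libraries in 2 groups and share their depth and scaling.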

How the data were processed

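Cortical poly(A) RNA of EA and control rats, in 5 libraries each, was sequenced as paired ends. Adapter trimming by the authors used Cutadapt, alignment HISAT2, transcript assembly StringTie and merging gffcompare. The submitters' processing notes name HISAT2 2.0, StringTie 1.3.0, Bowtie 0.12.2 and the build Rnor_6.0. StringTie and ballgown gave the authors' FPKM, scaled to transcript length and library size, in which 1e-04 stands for 0. The estimated counts per gene were deposited as whole numbers. The step from assembly to counts is not given in the sources used here, their totals exceed the study's number of valid reads, and so they are not independent molecules. Library preparation marked strand, but whether counting used it is not given there.

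Genes that reached 0.5 FPKM in 5 or more of the 10 libraries were kept. EA was compared with control on the counts by edgeR 4.0.16 in R 4.3.3 (TMM scaling, quasi-likelihood F test, no covariate), with Benjamini-Hochberg adjustment over all 15169 genes. A call needed an adjusted p under 0.05 and a fold above 1.2, the study's thresholds. Standard errors were derived from that fit as the absolute log2 fold change over the square root of its F statistic. The 95% intervals add a t quantile of these errors on either side. Alternatives were DESeq2 1.42.0, limma 3.58.1 on log2(FPKM + 0.1) and log2(FPKM + 1), other scalings and filters, a replicate block and leaving out libraries. An edgeR fit with robust dispersion was added after the data were seen. Members and gene lists were chosen with earlier results of these data known. Besides the 10 genes, those named are the up to 4 of each list with the lowest unadjusted p, or a choice among them, Atp2a1, Pln and the Orai genes, and the 5 closest in profile to Itpr3 and Ryr2. Sequences are from RefSeq, matched by symbol for all 10 genes.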

Additional observations from a re-analysis of the deposited data

How the results depend on the processing

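Over 22 other settings Itpr3, Ryr2, Ryr3, Atp2a3 and Stim2 kept their direction wherever they were fitted. Itpr3 and Atp2a3 were not fitted where FPKM of at least 1 was required in all libraries. DESeq2 called 2 of the 10 genes, Itpr3 (log2 fold change -0.62) and Ryr2 (0.29), and 168 genes in all, against 3 with edgeR. Genes close to 0 changed sign. With limma at a pseudocount of 0.1 the log2 fold change was -0.0072 for Ryr1 and -0.0079 for Atp2a2, and at a pseudocount of 1 it was -0.0017 for Ryr1 and -0.0079 for Atp2a2. On that last scale, log2(FPKM + 1), which shrinks the changes of low genes, it was -0.36 for Itpr3, 0.18 for Ryr3 and -0.18 for Atp2a3. Without EA 2 and EA 5 it was 0.0061 for Itpr2, -0.0051 for Atp2a2 and -0.11 for Atp2a3. Leaving out 1 library at a time gave -0.063 to 0.0017 for Itpr1, -0.13 to 0.042 for Itpr2, -0.051 to 0.10 for Ryr1, -0.010 to 0.030 for Atp2a2 and -0.014 to 0.12 for Stim1. It gave -0.67 to -0.56 for Itpr3, 0.23 to 0.33 for Ryr2, 0.27 to 0.38 for Ryr3 and -0.49 (without EA 4) to -0.25 (without EA 2) for Atp2a3. The difference in the Stim2 share ran from -1.28 to 1.21 percentage points. Genes called ran from 1 (without EA 5 or without control 5) to 5 (without EA 3). With the replicate number as a block 0 genes were called by edgeR (2073 at an unadjusted p under 0.05), with -0.62 for Itpr3 and 0.28 for Ryr2. Over all genes, same-numbered libraries showed little shared deviation (r of -0.0026 to 0.061). An r over all genes cannot show whether the numbers pair libraries for some of the genes. The cause of these changes was not tested. Deposited counts a library were lowest for Atp2a3 (155 to 309), ahead of Itpr3 (419 to 979) and Itpr2 (526 to 978).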

Other observations

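Routes that carry calcium away from the cytosol other than into the store were also counted. Among 12 pumps and exchangers of the plasma membrane and Golgi, edgeR called 0 and DESeq2 called 0, while 2 were higher and 0 lower in EA at an unadjusted p under 0.05, with a median log2 fold change of 0.07. Of all 15169 genes, 1000 were higher and 1085 lower at that p. The plasma membrane pump Atp2b4 had 32.0 ± 4.53 FPKM in EA and 28.4 ± 2.59 FPKM in control (log2 fold change 0.20, edgeR adjusted p = 0.338), and the Golgi pump Atp2c1 had 28.8 ± 1.60 FPKM in EA and 27.1 ± 0.830 FPKM in control (log2 fold change 0.12, edgeR adjusted p = 0.320).

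Among 12 genes of mitochondrial calcium uptake, edgeR and DESeq2 called 0, with 2 higher and 1 lower at an unadjusted p under 0.05. Over all genes tested 13.7% lay under that p in either direction. Vdac3, with the lowest p of them, had 112 ± 8.41 FPKM in EA and 101 ± 4.06 FPKM in control (log2 fold change 0.16, edgeR adjusted p = 0.235). Micu3, a neuronal regulator of the mitochondrial uniporter, had 11.6 ± 1.24 FPKM in EA and 9.96 ± 0.920 FPKM in control (log2 fold change 0.24, edgeR adjusted p = 0.272). Slc8b1, the mitochondrial sodium-calcium exchanger, had 1.93 ± 0.145 FPKM in EA and 2.53 ± 0.409 FPKM in control (log2 fold change -0.37, edgeR adjusted p = 0.262). Among 4 endolysosomal channels both tools called 0 and 2 were lower at an unadjusted p under 0.05, where 1085 of all 15169 genes were. These were Tpcn2, with 1.87 ± 0.467 FPKM in EA and 2.53 ± 0.229 FPKM in control (log2 fold change -0.41, edgeR adjusted p = 0.307), and P2rx4, with 5.86 ± 0.427 FPKM in EA and 6.85 ± 0.578 FPKM in control (log2 fold change -0.20, edgeR adjusted p = 0.318).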
